A study of Homo sapiens with 2 samples.

Results

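The Krüppel-like factor (KLF) genes KLF3, KLF4, KLF6, KLF7, KLF9, KLF10, KLF11, KLF13 and KLF16 were examined in A172, an established human glioblastoma line, and in a clone derived from it by selection with temozolomide (TMZ), the alkylating drug used against this tumour. They were chosen by gene name from a list and are 9 of 15603 genes in the deposited table. The TMZ-resistant group was 1 library of the clone labelled A172-r#6, kept with TMZ, and the parental group was 1 library of A172 kept without it. RNA was sequenced from stranded mRNA libraries. The resistant cells are a single clone, so effects of the clone, of selection and of the drug itself cannot be told apart. No group had a replicate, so every difference below is between these 2 libraries and carries no p-value or error of its own.

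KLF proteins are transcription factors that bind GC-rich and CACCC-type elements in promoters through zinc fingers at their C-terminal end, which the related SP factors share. Their N-terminal parts differ and set what they recruit. KLF4, KLF6 and KLF7 belong to a group known mainly as activators, KLF3 belongs to a group that recruits the CtBP corepressors, and KLF9, KLF10, KLF11, KLF13 and KLF16 belong to a group that binds the corepressor SIN3A. Several are known to be induced by stress, growth factors or hormones and to restrain the cell cycle, and KLF4, KLF6 and KLF9 have been studied in glioma.

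Levels are FPKM, that is, fragments divided by transcript length and by library size. The fold of a gene is log2 of (resistant FPKM + 1) over (parental FPKM + 1), a scale that understates the change of genes with low levels. A gene was tested when it had at least 1 FPKM in either library, and it was called when it differed at least 2-fold. All 9 KLF genes were tested and none was listed at 0. Every one of them had more FPKM in the resistant than in the parental library, where 53.3% of the 13937 tested genes did. KLF9 reached 1 FPKM only in the resistant library (1.28, against 0.964 in the parental one), so its direction is tied to its being tested. Only KLF16 was called higher (1 of 9, against 4.59% of tested genes) and none was called lower (against 3.82%). At 1.5-fold, 5 of 9 were higher (against 14.5% of tested genes). The median log2 fold of the 9 genes was 0.60. Over all tested genes the median was 0.04, with quartiles at -0.31 and 0.38, and 6 of the 9 KLF genes lay above the upper quartile.

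**Figure D1:**
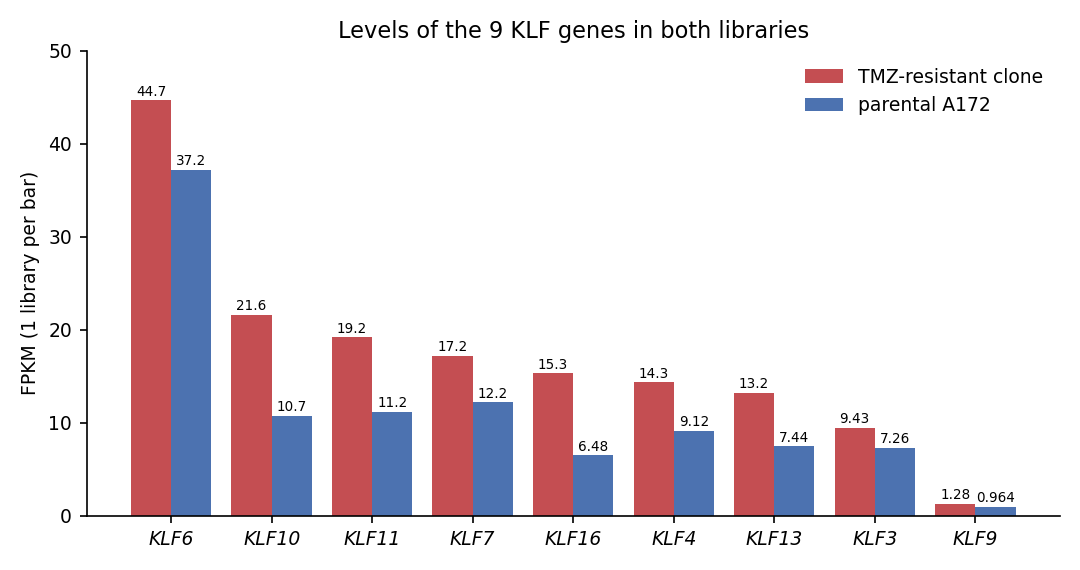
Level (FPKM, linear axis from 0) of each of the 9 KLF genes, with 1 bar for the resistant library on the left and 1 for the parental library on the right, ordered by the resistant level. KLF6 was the most abundant at 44.7 FPKM in the resistant and 37.2 in the parental library, and KLF9 the least at 1.28 and 0.964.

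The genes were higher together, and KLF proteins themselves bind GC boxes and CACCC elements. The sequences before the annotated starts are therefore shown for 5 of the genes. Of the genes whose promoters were analysed, the 3 with the largest folds are shown (KLF16, KLF13 and KLF11). The gene at the median (KLF4) and the gene with the smallest fold (KLF9) are shown as well. KLF10 is not shown, although its log2 fold of 0.95 was larger than those of KLF13 and KLF11, because it was left out of the promoter analysis. Each line is the 250 bases before the start in RefSeq (GRCh38.p14), read 5′ to 3′ on the strand of the gene. Capitals mark GGGCGG and CACCC on either strand (CCGCCC and GGGTG on the printed strand). Of the 2 RefSeq windows of KLF11, the second is shown.
KLF16 (chr19:1863580-1863829, minus strand): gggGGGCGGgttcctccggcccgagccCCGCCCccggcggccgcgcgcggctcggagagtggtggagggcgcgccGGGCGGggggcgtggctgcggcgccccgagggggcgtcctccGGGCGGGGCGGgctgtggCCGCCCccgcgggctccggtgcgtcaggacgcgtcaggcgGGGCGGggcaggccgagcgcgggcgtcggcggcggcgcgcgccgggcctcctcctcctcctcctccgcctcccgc
KLF13 (chr15:31326585-31326834, plus strand): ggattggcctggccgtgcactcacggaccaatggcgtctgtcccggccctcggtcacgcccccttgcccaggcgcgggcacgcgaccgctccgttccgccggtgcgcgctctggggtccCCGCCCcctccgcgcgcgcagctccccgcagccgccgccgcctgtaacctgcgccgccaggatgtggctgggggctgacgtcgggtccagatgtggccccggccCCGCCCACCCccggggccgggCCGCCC
KLF11 (chr2:10043971-10044220, plus strand): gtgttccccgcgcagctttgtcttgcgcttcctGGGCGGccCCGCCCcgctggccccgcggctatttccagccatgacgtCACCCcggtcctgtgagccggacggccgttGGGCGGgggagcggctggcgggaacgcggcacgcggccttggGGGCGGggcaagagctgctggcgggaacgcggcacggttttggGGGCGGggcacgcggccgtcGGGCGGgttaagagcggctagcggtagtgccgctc
KLF4 (chr9:107489770-107490019, minus strand): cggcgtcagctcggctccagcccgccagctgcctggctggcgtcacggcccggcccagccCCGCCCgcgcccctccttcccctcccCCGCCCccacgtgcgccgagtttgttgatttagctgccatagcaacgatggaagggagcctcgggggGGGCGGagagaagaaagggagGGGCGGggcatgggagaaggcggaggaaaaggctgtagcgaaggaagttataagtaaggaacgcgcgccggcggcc
KLF9 (chr9:70414658-70414907, minus strand): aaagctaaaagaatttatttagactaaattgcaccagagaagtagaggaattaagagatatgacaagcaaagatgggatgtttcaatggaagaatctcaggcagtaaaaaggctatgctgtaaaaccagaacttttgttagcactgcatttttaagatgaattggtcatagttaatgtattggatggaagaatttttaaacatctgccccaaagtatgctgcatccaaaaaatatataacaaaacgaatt

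In these upstream stretches KLF16 held 7 matches of GGGCGG and none of CACCC. KLF11 held 6 and 1, KLF13 held 3 and 1, and KLF4 held 4 and none. In KLF13, 1 GGGCGG match overlaps the CACCC match. Neither motif occurred before KLF9. Windows of 7 of the 9 genes were analysed, 11 in all, each of 300 bases that reach 50 bases past the start. KLF3 had no promoter entry, and KLF10 was left out of the promoter analysis. Of the 11 windows 7 held GGGCGG, which 45.0% of 35116 RefSeq promoter windows hold, and 5 held CACCC, which 59.9% hold. The KLF6 window, not shown, held 2 matches of GGGCGG, and those of KLF7, not shown, held 0, 0, 4 and 0. Genes with 0, 1 or 2, and 3 or more GC-box matches had median log2 folds of 0.01, 0.06 and 0.12. Their median transcript GC content also differed, at 46.2%, 47.6% and 50.5%. For CACCC the median folds were 0.06, 0.07 and 0.04. Whether promoter sequence bears on the folds was not tested. The KLF16 window and the second of KLF11 had 7 matches of GGGCGG each, and 9.06% of all windows had 4 or more. The KLF16 window was 86.0% G and C, that of KLF9 32.7%, and the median of all windows was 58.7%. Windows of like composition could differ in matches: the first of KLF11, at 77.3% G and C, had 2 of GGGCGG, and the second, at 75.3%, had 7. That of KLF13, at 78.3% G and C, had 3 of GGGCGG and that of KLF4, at 69.0%, had 4. The cyclic AMP element TGACGTCA occurred in 1 window, the second of KLF11, and in 1.85% of all windows. A match of letters describes the sequence and does not show that a factor binds there.

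Among the SIN3A-binding members, KLF16 had the largest fold of the 9 genes. KLF16, a repressor of the GC-box binding type, lies on chromosome 19 from 1852399 to 1863568 on the minus strand (ENSG00000129911, coordinates here and below from GENCODE 29, GRCh38). It had 15.3 FPKM in the resistant library and 6.48 in the parental one, a plain ratio of 2.37 and a log2 fold of 1.13. That fold ranked 446 from the top of all tested genes. The call was lost with a pseudocount of 5, at a log2 fold of 0.82. It was also lost when the fold was taken relative to genes of like GC content, at 0.999. Its longest transcript is 67.8% G and C, at percentile 99.2 of tested genes. The 1389 most GC-rich genes had a median log2 fold of 0.13, against 0.04 over all tested genes.

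KLF10, also known as TGF-beta inducible early gene 1, was second (ENSG00000155090, chromosome 8, 102648779 to 102655902, minus strand). It had 21.6 FPKM in the resistant and 10.7 in the parental library. The plain ratio was 2.02, but the log2 fold of 0.95 with the pseudocount stayed under the threshold. With a pseudocount of 0.1 the log2 fold was 1.01, and KLF10 was then called as well, beside 7.72% of tested genes. KLF10 also had the largest gain in absolute level of the 9 genes, at 10.9 FPKM.

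KLF13 and KLF11 had folds of nearly the same size. KLF13, which activates the chemokine gene CCL5 in T cells, had 13.2 FPKM in the resistant and 7.44 in the parental library, a log2 fold of 0.75 (ENSG00000169926, chromosome 15, 31326855 to 31435665, plus strand). KLF11, the second TGF-beta inducible early gene and a regulator of insulin and monoamine oxidase genes, had 19.2 FPKM in the resistant and 11.2 in the parental library, a log2 fold of 0.73 (ENSG00000172059, chromosome 2, 10042849 to 10054836, plus strand). Both lay above 90% of tested genes by fold, at percentiles of 90.8 and 90.2.

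KLF9, a glucocorticoid- and thyroid hormone-responsive factor, had 1.28 FPKM in the resistant and 0.964 in the parental library, the lowest level of the 9 genes in both, and a log2 fold of 0.21 (ENSG00000119138, chromosome 9, 70384597 to 70414624, minus strand). In the parental library 4.37% of tested genes were at or below its level. At such a level the fold depends on the pseudocount, and it ran from 0.07 with a pseudocount of 5 to 0.37 with 0.1. Summed over the 5 SIN3A-binding genes, the level was 70.6 FPKM in the resistant and 36.8 in the parental library, and their median log2 fold was 0.75.

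The 3 members of the activator group had log2 folds from 0.26 to 0.60, with a median of 0.46. KLF4, a pluripotency factor that also acts as a p53-dependent brake on the cell cycle, had 14.3 FPKM in the resistant and 9.12 in the parental library, a log2 fold of 0.60 (ENSG00000136826, chromosome 9, 107484852 to 107490482, minus strand). KLF7, known for its part in neuronal development and axon growth, had 17.2 FPKM in the resistant and 12.2 in the parental library, a log2 fold of 0.46 (ENSG00000118263, chromosome 2, 207074137 to 207167267, minus strand). KLF6, a tumour suppressor candidate that can activate CDKN1A, had 44.7 FPKM in the resistant and 37.2 in the parental library, a log2 fold of 0.26 (ENSG00000067082, chromosome 10, 3775996 to 3785281, minus strand). KLF6 was the most abundant of the 9 genes in both libraries, but its fold was the second smallest. It made up 28.6% of the summed KLF level in the resistant library and 36.3% in the parental one.

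KLF3, a repressor that works with CtBP in blood, fat and muscle cells, had 9.43 FPKM in the resistant and 7.26 in the parental library, a log2 fold of 0.34 (ENSG00000109787, chromosome 4, 38664196 to 38701042, plus strand). Its exons overlap those of the antisense RNA KLF3-AS1, at 0.702 FPKM in the resistant and 0.792 in the parental library, and the deposited table gives both genes 1 merged locus. Whether strand was used in counting is not stated, so reads of the overlap may fall to either gene. A processed pseudogene on chromosome 5, KLF3P1, was listed at 0.508 FPKM in the resistant and 0.558 in the parental library. Reads of KLF3 may be shared with that copy, so the KLF3 value is uncertain. KLF7-IT1, an RNA inside an intron of KLF7 on the same strand, had 2.41 FPKM in the resistant and 3.37 in the parental library, a log2 fold of -0.36 where that of KLF7 itself was positive. The exons of the other 8 members overlapped those of no other listed gene.

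Taken over the 9 genes, the summed level was 156 FPKM in the resistant and 103 in the parental library, a ratio of 1.52. Without KLF6 the sums were 112 and 65.3 FPKM. The order of levels changed in the middle of the range. KLF16 ranked 5 in the resistant and 8 in the parental library, and KLF10 ranked 2 and 4, while KLF6, KLF11 and KLF9 kept their places. Without replicates it cannot be said which neighbours in that order differ beyond their spread. All 9 folds stayed positive under both scalings, the GC reference and the centring, which use the same 2 libraries. A pseudocount cannot change the sign of a fold, so those settings do not bear on direction. The sizes of the folds did depend on scaling, since scaling both libraries to the same FPKM sum lowered the median log2 fold of the 9 genes to 0.50. It also changed the genes called over the whole table to 506 higher and 659 lower, against 640 higher and 532 lower without scaling.

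**Figure D2:**
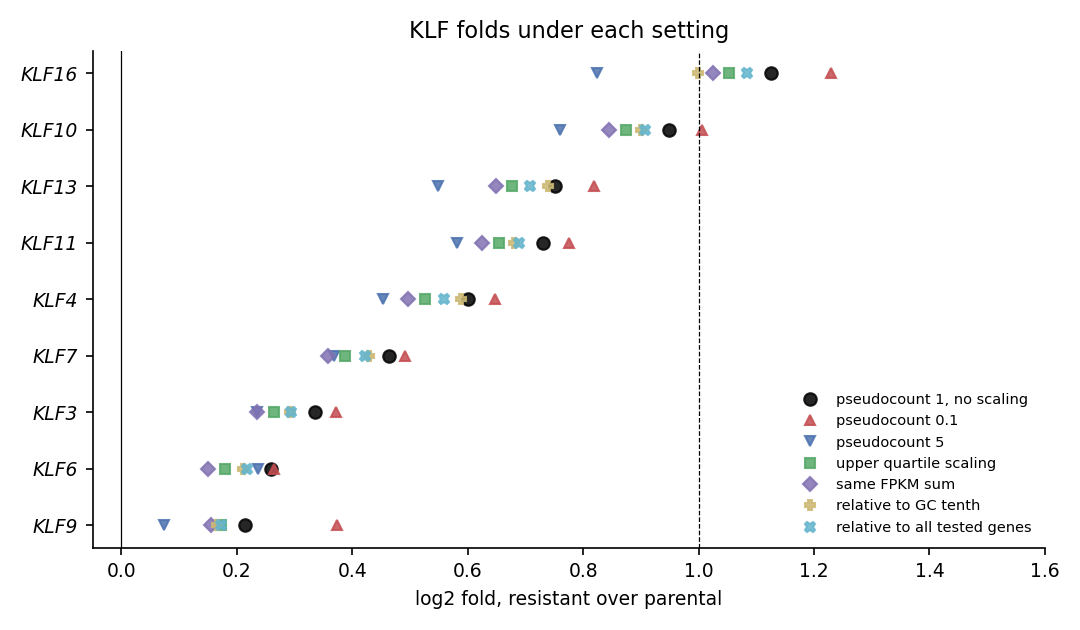
Log2 fold of each KLF gene (rows) under 7 settings of the pseudocount, the scaling and the reference, with the 2-fold threshold as a dashed line at 1. All points lie right of 0; KLF16 crosses the threshold to 0.82 with a pseudocount of 5, and KLF10 reaches 1.01 with a pseudocount of 0.1.

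In the authors' deposited table, no KLF member had a q-value under 0.05, where 9.11% of all 15603 listed genes did in either direction, 5.13% higher and 3.98% lower. The smallest q-value of a member in the authors' deposited table was 0.0534, for KLF16, followed by 0.0874 for KLF11 and 0.102 for KLF4. In the authors' deposited table KLF10 had a q-value of 0.113 although its ratio was the second largest, and KLF9, with the lowest level, had 0.801. Unadjusted p-values under 0.05 in the authors' deposited table were held by 5 of the 9 members, KLF4, KLF10, KLF11, KLF13 and KLF16, all of them higher. Of all listed genes, 11.3% had such a p-value and were higher. The test behind these values is not stated, and it compares 2 libraries rather than 2 conditions.

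The 9 genes are not the whole family. The table lists 13 KLF genes, of which 12 were tested, and the other 4 include both extremes of the family. KLF2, a factor of endothelial and lymphocyte quiescence, was called higher, with 19.0 FPKM in the resistant and 6.60 in the parental library (log2 fold 1.39). KLF12, which like KLF3 recruits CtBP, had 2.67 FPKM in the resistant and 4.24 in the parental library (log2 fold -0.51), the only negative fold among the 13. KLF5, a factor of proliferating epithelia, had 6.69 and 5.66 FPKM in the resistant and parental libraries (0.21). KLF15 was below the filter, at 0.623 FPKM in the resistant and 0.236 in the parental library. The median log2 fold of the 12 tested genes was 0.53, and 11 of them were positive. Of the SP factors, which share the zinc fingers and the GC-box sites, none of 4 tested was called, and their median was 0.11. SP1 had 19.9 FPKM in the resistant and 17.6 in the parental library (0.17), and SP3 had 34.2 and 36.5 (-0.09).

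**Figure D3:**
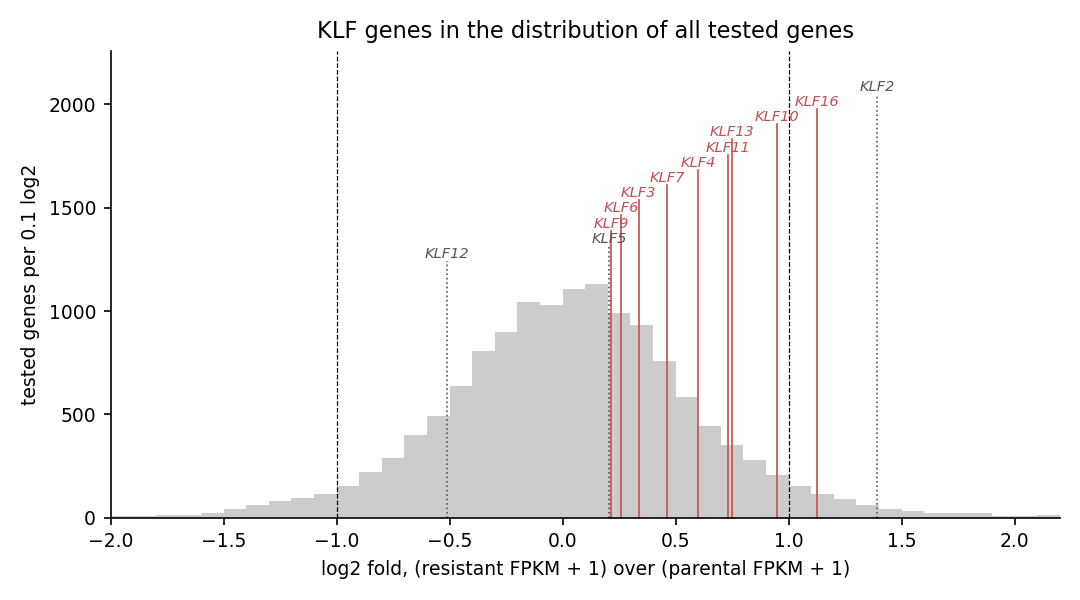
Histogram of log2 folds of the 13937 tested genes (grey, genes per bin of 0.1, axis limited to -2 to 2.2), with the 9 KLF genes as solid lines and the other tested KLF genes, KLF2, KLF5 and KLF12, as dotted lines. Line heights only keep the names apart. The 9 genes run from 0.21 for KLF9 to 1.13 for KLF16, and dashed lines mark the 2-fold threshold.

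Chromosomal neighbours were read to show whether a KLF gene moved with the region around it. For each KLF gene the 5 nearest tested genes on each side were taken. KLF16 and KLF13 stood above all 10 of their neighbours. The neighbours of KLF16 had a median log2 fold of 0.03 and ran from -0.63 to 0.61, with REXO1 at 11.8 FPKM in the resistant and 7.79 in the parental library on the side of lower coordinates. Those of KLF13 had a median of -0.35, with 1 of 10 positive and MTMR10 next to it at 9.98 FPKM in the resistant and 10.4 in the parental library. KLF10 stood above all but 1 of its neighbours, AZIN1, which had 70.5 FPKM in the resistant and 31.8 in the parental library and was itself called higher. Around KLF11 the median was 0.25, and 2 neighbours, ODC1 (77.5 FPKM in the resistant and 35.5 in the parental library) and CYS1 (2.27 and 0.936 FPKM), had larger folds. The neighbours of KLF4, KLF7 and KLF3 had medians of 0.46, 0.35 and 0.20, on the same side as the KLF gene and closer to it. KLF6 and KLF9 had neighbours with medians of -0.02 and -0.46. DNA copy number was not analysed here.

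**Figure D4:**
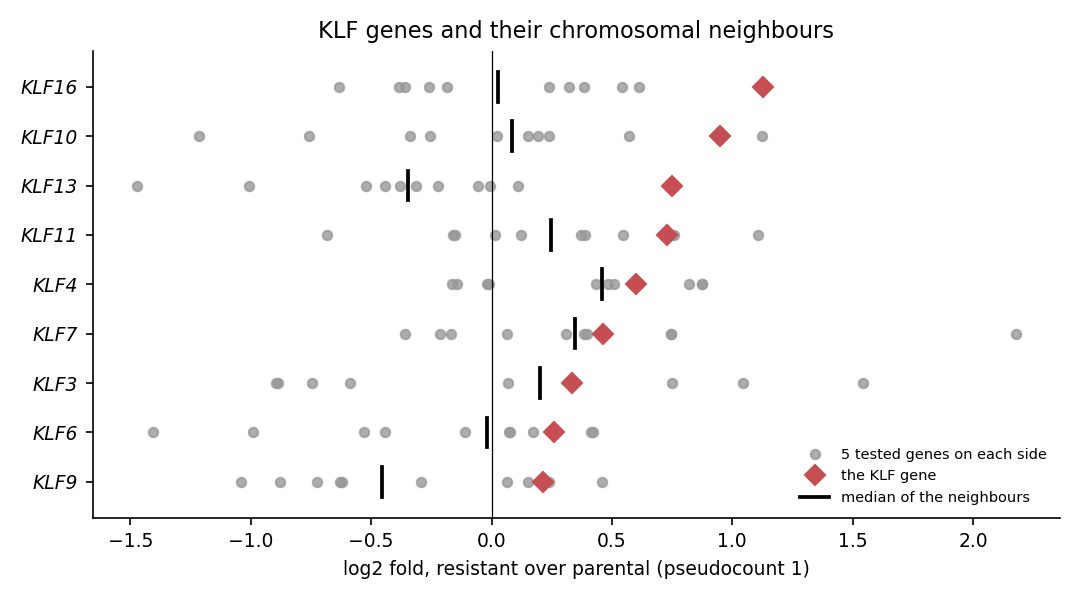
Log2 fold of each KLF gene (diamond), of its 5 tested neighbours on each side (circles) and the median of those neighbours (bar). KLF16 and KLF13 lie right of all 10 neighbours, whose medians were 0.03 and -0.35, while KLF4, KLF7 and KLF3 lie within the range of theirs.

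The genes for corepressors, coactivators and ligases that KLF proteins work with had medians near 0 or below, apart from the ubiquitin ligases that act on KLF proteins. Of 17 genes of the SIN3 complex none was called (median log2 fold -0.01). SIN3A itself, the scaffold that KLF9, KLF10, KLF11, KLF13 and KLF16 bind, had 9.48 FPKM in the resistant and 10.7 in the parental library. Among genes of that list with 5 or more FPKM in a library, SAP18 and SAP30L differed most. SAP18 had 14.7 FPKM in the resistant and 28.6 in the parental library (-0.91), and SAP30L had 16.1 and 11.4 (0.46). With libraries scaled to the same sum 1 of the 17 was called lower. Over all tested genes 4.59% were called higher and 3.82% lower. Among 11 genes of the CtBP complex and its partners 1 was called higher and 1 lower, with a median of -0.18. These were the zinc-finger homeobox repressors ZEB2, at 18.7 FPKM in the resistant and 8.58 in the parental library (1.04), and ZEB1, at 7.34 and 17.0 (-1.11). The ZEB2 call was lost under both scalings and in both centred settings, and both calls were lost with a pseudocount of 5. CTBP1 had 51.4 FPKM in the resistant and 57.4 in the parental library. None of 7 coactivators was called (median 0.05, below 0 under both scalings), with NCOA3 at 12.2 FPKM in the resistant and 7.27 in the parental library and the acetyltransferase KAT2B at 6.31 and 9.79. None of 11 ubiquitin ligases reported for KLF proteins was called (median 0.21), with FBXO32 at 15.7 FPKM in the resistant and 9.49 in the parental library and SMURF2 at 16.5 and 10.5.

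The lists for signals that act on KLF genes include targets of those signals as well as components. Among them, those for glucocorticoid and TGF-beta signalling had the higher medians. The shares called over all tested genes were 4.59% higher and 3.82% lower. Of 10 tested genes for the glucocorticoid receptor and its targets, 1 was called higher and none lower, with a median log2 fold of 0.60. It was the phosphatase DUSP1, at 38.9 FPKM in the resistant and 11.9 in the parental library (1.63). The receptor itself, NR3C1, had 33.0 FPKM in the resistant and 16.3 in the parental library (0.98), and KLF9, a target of that receptor, had the level near 1 FPKM given above. With a pseudocount of 0.1, 3 of the 10 were called higher. Of 14 TGF-beta genes, 4 were called higher and 1 lower (median 0.49). The receptor TGFBR1 was called higher, at 24.8 FPKM in the resistant and 11.0 in the parental library, whereas its partner TGFBR2 was called lower, at 8.83 and 65.4 (-2.76). TGIF1, a repressor of SMAD signalling, had 54.9 FPKM in the resistant and 23.3 in the parental library (1.20). SMAD7, an inhibitory SMAD whose promoter KLF10 and KLF11 are reported to repress, had 4.69 FPKM in the resistant and 2.92 in the parental library (0.54). With a pseudocount of 5 or with libraries scaled to the same sum, 2 of the 14 were called higher. None of 7 genes of the ERK5 and MEF2 route to KLF2 and KLF4 was called (median -0.11), with MEF2A at 22.3 FPKM in the resistant and 15.7 in the parental library and MAP2K5 at 13.1 and 15.2.

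Genes reported as KLF targets differed in both directions. Of 22 tested, 6 were called higher and 1 lower, with a median log2 fold of 0.44. Over all tested genes these shares were 4.59% and 3.82%. With a pseudocount of 5 or with libraries scaled to the same sum, 4 of the 22 were called higher. The median was then 0.32 and 0.33. With a pseudocount of 0.1, 2 were called lower. The lists share genes: TGFBR1 counts here and among the TGF-beta genes, and CDKN1A here and among the quiescence genes. CDKN1A, the cyclin-dependent kinase inhibitor that KLF4 and KLF6 activate, had 155 FPKM in the resistant and 56.7 in the parental library (1.43). CCND1, which KLF4 is reported to repress, was also called higher, at 146 FPKM in the resistant and 61.7 in the parental library (1.23). The stress factor ATF3, reported as activated by KLF6, had 37.7 FPKM in the resistant and 11.6 in the parental library (1.62). COL1A1, reported as activated by KLF6, was called lower, at 6.53 FPKM in the resistant and 33.5 in the parental library (-2.19). The list mixes genes that KLF proteins activate with genes that they repress, so its median has no set direction.

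Of 17 tested quiescence genes 3 were called higher and none lower (median 0.18), against 4.59% and 3.82% of all tested genes. These were CDKN1A, TXNIP, an inhibitor of thioredoxin and glucose uptake at 98.8 FPKM in the resistant and 36.1 in the parental library (1.43), and KLF2. The kinase inhibitor CDKN1B went against these, at 4.51 FPKM in the resistant and 8.79 in the parental library (-0.83). None of 16 proliferation genes was called (median -0.27), with MKI67 at 4.85 FPKM in the resistant and 10.6 in the parental library (-0.99) and PCNA at 33.8 and 66.5 (-0.96). Scaled to the same sum or by the upper quartile, 2 of the 16 were called lower. Immediate early transcription factors, which like several KLF genes respond fast to stimulation, had 4 of 14 tested called higher and 2 lower (median 0.32). MYC had 26.2 FPKM in the resistant and 4.99 in the parental library (2.18), and FOSL1 had 12.5 and 1.98 (2.18), whereas EGR1 had 2.31 FPKM in the resistant and 8.85 in the parental library (-1.57). With a pseudocount of 5 none of the 14 was called lower, and with a filter of 5 FPKM 1 was. KLF4 is one of the pluripotency factors together with MYC and SOX2, and of 5 tested stem factors 1 was called higher, MYC, and 2 lower. The lower ones were nestin, NES, at 5.08 FPKM in the resistant and 33.7 in the parental library (-2.51), and SOX2, at 0.253 and 2.23 (-1.37). With a pseudocount of 5 or a filter of 5 FPKM, 1 was called lower, and SOX2 no longer was.

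**Figure D5:**
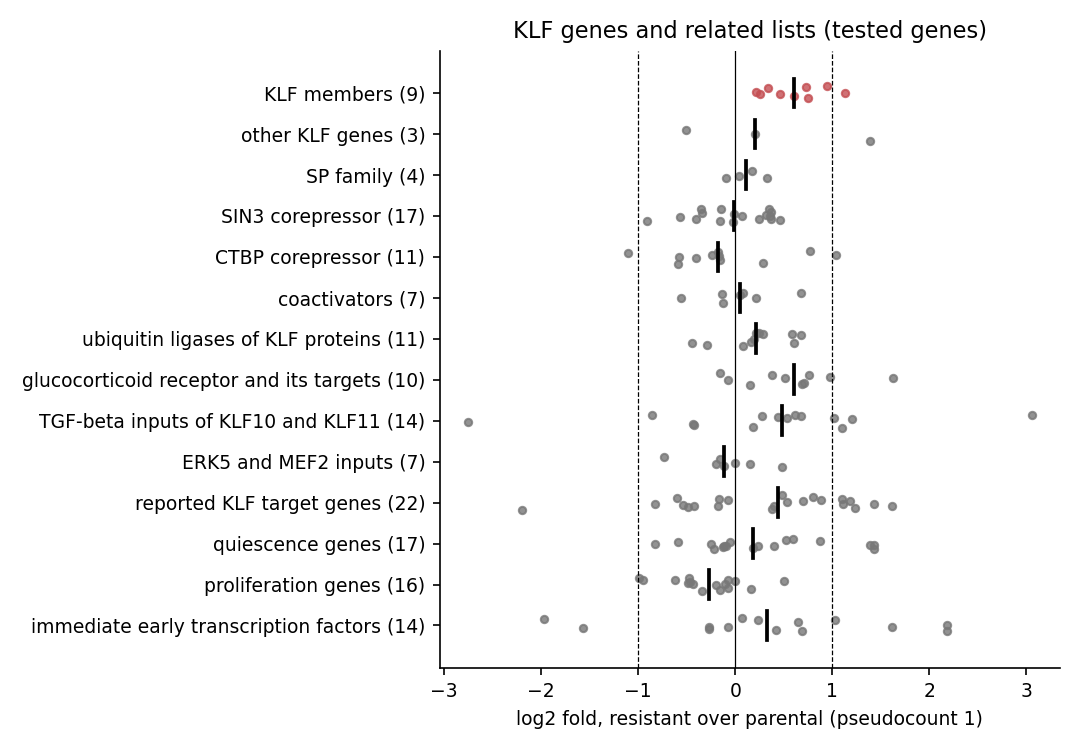
Log2 fold of each tested gene in the KLF list (top row, red) and in 13 related lists (grey), with the number of tested genes in brackets and the median as a black bar. Points are spread vertically for visibility; dashed lines mark the 2-fold threshold. The KLF median was 0.60, that of the SIN3 corepressor genes -0.01 and that of the proliferation genes -0.27.

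The 2 libraries had similar overall levels. The FPKM of the table summed to 323932 in the resistant and 299594 in the parental library, with medians of 7.14 and 6.84, and sequencing depth is unknown. None of 15 reference genes was called (median 0.09). Of 8 tested markers of A172 and glioma 2 were called higher and 2 lower, against 4.59% and 3.82% of all tested genes. FN1, fibronectin, was called higher, at 10.3 FPKM in the resistant and 4.45 in the parental library, and NES and SOX2 were the lower ones. With a pseudocount of 5 there was 1 call in each direction, and under both scalings 1 higher call. Vimentin, VIM, typical of mesenchymal glioma lines, had 804 FPKM in the resistant and 632 in the parental library, CD44 had 161 and 83.1, and CHI3L1 had 2.09 and 2.34, none of them called. The astrocyte genes GFAP and S100B had no value to analyse here. Of 16 markers of other cell types 5 were tested, with the keratin gene KRT8 called higher at 905 FPKM in the resistant and 213 in the parental library and the pericyte gene RGS5 called lower at 1.55 and 22.8. Their part in the KLF values was not tested.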

How the data were processed

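RNA of A172 cells and of a TMZ-resistant clone was sequenced, 1 library each, with a stranded mRNA kit, per the labels' protocols. The authors deposited FPKM per gene, per the file headers. Not given in the sources used here are the aligner, the quantifier, the annotation and the build, and depth is unknown. The authors also deposited a log2 ratio, a p-value and a q-value per gene, per the file headers, with a test that is not stated. The deposited log2 ratio equalled that of the FPKM within 0.001 for all 9 members.

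Folds, filters (1 FPKM in either library) and calls (2-fold) were computed with Python 3.11.15, pandas 2.3.3 and NumPy 2.4.6. The call rule was run on simulated data. Those data held changes well above the threshold in genes well above the filter, so they do not bear on folds near the threshold or on low levels. No p-value was computed, because each group has 1 library. Of the 15603 identifiers in the table, 15531 were found in GENCODE release 29 (GRCh38). It gave coordinates, and its longest transcript of each gene gave GC content. Its start equalled the table's start plus 1 for 7 of the 9 members, and loci of overlapping genes are merged in the table. Protein sequences were planned but not used here.

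The members and lists were chosen with earlier results of these data known. Besides the 9 members, the text names up to 4 called genes per list that reached 5 FPKM in a library, or 2 with the largest folds where none was called, and genes next to a member. Genes outside that rule (SIN3A, CTBP1, NR3C1, SMAD7, CDKN1B, SOX2, VIM, CD44, CHI3L1, ODC1, KLF5, KLF12, KLF15, KLF3-AS1 and KLF3P1) were chosen after their values were seen. One gene that the rule would name is not reported here.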

Additional observations from a re-analysis of the deposited data

How the results depend on the processing

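No paired analysis was possible because each group has 1 library and the labels give no shared replicate numbers, and no library could be left out. Folds relative to genes of like GC content (10 equal bins) or to all tested genes were chosen after seeing the data. The count of KLF members called higher, 1 with a pseudocount of 1, was 2 with a pseudocount of 0.1, 0 with a pseudocount of 5, 0 relative to genes of like GC content, 5 at 1.5-fold and 0 at 4-fold. No member was called lower in any of these settings. The median log2 fold of the members was 0.45 with a pseudocount of 5 and 0.50 with libraries scaled to the same sum, against 0.60. Without KLF9, which a filter of 5 FPKM removed, it was 0.67. Of 54 member folds under alternatives, 3 changed side of the threshold (KLF16 at 0.82 and 0.999, KLF10 at 1.01). Over all genes, 640 higher and 532 lower calls became 1076 and 1029 with a pseudocount of 0.1, 220 and 114 with 5, 2020 and 1674 at 1.5-fold and 61 and 59 at 4-fold, and a filter of 5 FPKM left 282 lower calls. Of 143 list medians under alternatives, 27 moved by over 0.1 and 4 changed sign, in 3 lists. The depth, and so the counting error of each FPKM, is unknown.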
